A study of Mus musculus with 6 samples.

Results

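TRIM9 is an E3 ubiquitin ligase of neurons, and 9 genes for proteins that are known to act with it were followed in adult mouse retinas that lack it. The genes were taken as a fixed list of names: Enah, Evl and Vasp, which encode the Ena/VASP actin regulators; Btrc, which encodes the F-box protein beta-TrCP; Snap25, Stx1a and Vamp2, which encode the SNARE proteins of neuronal exocytosis; and the tyrosine kinases Src and Fyn. All 9 were measured, out of 18193 genes, through 26 of the 34945 probe sets that name 1 gene. RNA came from adult retinas of 3 Trim9 KO mice and 3 WT littermates, with 1 Affymetrix whole-genome expression array per sample. The Trim9 KO mice lack exon 1 of Trim9, which had been removed by crossing to CMV-cre mice, a line in which Cre is driven by a promoter that is active in most tissues, so that the loss is not limited to the retina. The WT mice carried no such deletion according to the labels, neither group was given a drug or other agent, and age is given only as adult. Whether a sample held 1 retina or both is not stated, and p-values measure the spread between these samples.

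In neurons of the brain, TRIM9 binds the netrin receptor DCC and ubiquitinates VASP, a protein that promotes the elongation of actin filaments at the tips of filopodia. The closely related ENAH and EVL share its domain plan, with an EVH1 domain that docks on proline-rich partners and an EVH2 domain that binds actin. TRIM9 also binds SNAP25, which together with syntaxin 1A on the plasma membrane and VAMP2 on the vesicle forms the complex that drives vesicle fusion, and it binds beta-TrCP, the subunit through which an SCF ubiquitin ligase recognises phosphorylated substrates such as beta-catenin and the NF-kappaB inhibitor. SRC and FYN are kinases that act downstream of netrin and DCC. These are relations between proteins, whereas the arrays measured RNA.

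The values are linear intensities of probe sets, in which several short oligonucleotides jointly read a transcript, and they were compared as log2(intensity + 16). A gene was represented by its brightest probe set, judged by the mean of all 6 arrays, and intensities were not compared between genes, since each probe set binds its target with its own strength. The median intensity was 252 to 807 on the Trim9 KO arrays and 218 to 675 on the WT arrays. Trim9 KO replicate 1 stood apart, with Pearson's r of 0.466 to 0.516 with the other arrays across 45037 probe sets, against 0.655 to 0.887 among the other 5. The ratio of the 3' to the 5' signal of Actb grows as RNA is degraded. It was 2.80, 90.6 and 85.7 on Trim9 KO replicates 1, 2 and 3. On WT replicates 1, 2 and 3 it was 19.8, 9.73 and 3.42. Trim9 KO replicates 2 and 3 thus lay above every WT array, and Trim9 KO replicate 1 had the lowest ratio of the 6 arrays. The part of this ratio in the fold changes was not tested. The 3' signal of Gapdh exceeded its 5' signal by 6.28 to 8.1 log2 units on 5 arrays, a large 3' excess. WT replicate 3 stood apart, with a difference of -0.14 log2 units and so no such excess. Its Actb ratio, 3.42, was the lowest of the WT arrays. The rod genes Gnat1, Pde6b, Sag and Nrl were bright on all arrays, as the tissue label implies. All 5 genes of pigment cells (Dct, Mlana, Rpe65, Tyr and Tyrp1) had a higher mean in Trim9 KO retinas, with a summed intensity of 4756 to 27089 against 3817 to 5740 in WT retinas. The upper value was that of Trim9 KO replicate 3, where Rpe65 read 9968 and Tyrp1 12063. The genotypes overlapped for Dct, Rpe65, Tyr and Tyrp1. Fold changes are given as Trim9 KO over WT, and they are to be read relative to the median of all probe sets, which was 0.18 on the log2 scale. That median moved to 0.015 with quantile normalization and to -0.14 with equal array medians. In a whole retina, fewer cells of a type and less RNA per cell cannot be told apart.

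Trim9 itself gave intensities of 1498, 497 and 367 in Trim9 KO retinas and 4226, 1767 and 1667 in WT retinas by its brightest probe set. Every KO array lay below every WT array, and the log2 fold change was -1.81 with a standard error of 0.99 (limma, adjusted p = 0.999). A further probe set (1434595_at) also had all KO arrays below, at -2.48, whereas in the remaining 2 of its 4 probe sets, at -0.77 and -0.58, the genotypes overlapped. Signal of Trim9 thus remained in the KO retinas, and the position of its probe sets with respect to exon 1 was not analysed here.

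No TRIM9 partner gene passed the test for a difference between the genotypes, and in the brightest probe set of each of them the arrays of the genotypes overlapped. For 0 of the 9 genes did the 3 Trim9 KO arrays lie wholly below or wholly above the 3 WT arrays, a pattern found for 2.89% (below) and 5.35% (above) of all genes. None passed limma at an adjusted p of 0.05, as 0% of all 45037 probe sets did, and 0 of the 9 had an unadjusted p under 0.05, against 2.56% of all genes and 2.88% of all probe sets. The mean was lower in Trim9 KO retinas for 6 genes (Enah, Evl, Vasp, Btrc, Snap25 and Vamp2) and higher for 3 (Stx1a, Src and Fyn), where 44.8% of all genes had a lower and 55.2% a higher mean. Means differed by 2-fold or more for 4 of the 9 (Evl, Snap25, Stx1a and Vamp2), against 34.1% of all genes. The median log2 fold change of the 9 genes was -0.13, against 0.14 for all genes. The 95% interval of the log2 fold change included 0 for all 9 genes, and for 6 of them it reached beyond a 2-fold difference in both directions, so that changes of that size could not be detected or set aside with these arrays.

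**Figure D1:**
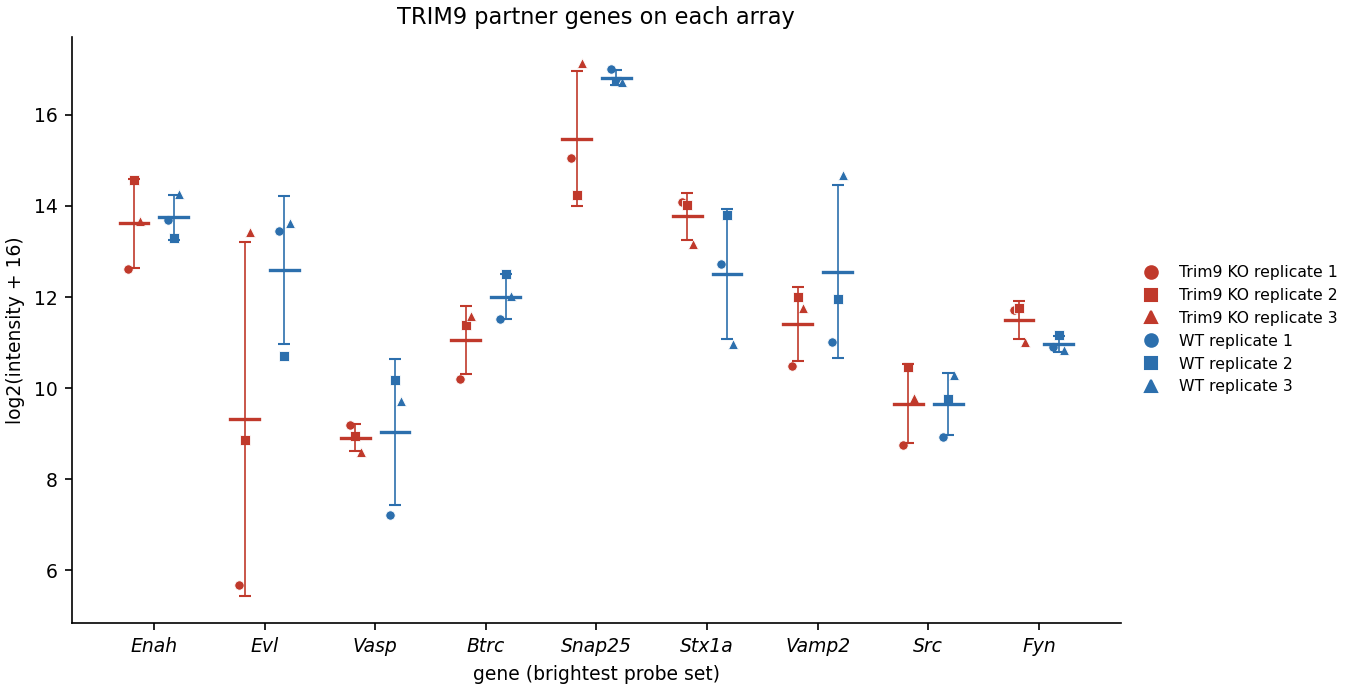
Log2(intensity + 16) (y axis) of the brightest probe set of each TRIM9 partner gene (x axis), with 1 point per array, Trim9 KO in red and WT in blue; long lines are means and bars are the SD (n = 3 each). The genotypes overlap for all 9 genes, and Evl has the widest spread, with Trim9 KO arrays from 5.68 to 13.43.

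Among the Ena/VASP genes, Evl had the lowest log2 fold change of the 9 and also the widest spread. Its brightest probe set read 35.3, 450 and 11006 in Trim9 KO retinas and 11198, 1657 and 12556 in WT retinas. Trim9 KO replicates 1 and 2 were thus low, whereas Trim9 KO replicate 3 was as bright as the bright WT arrays and brighter than WT replicate 2. On the log2 scale the means were 9.32 ± 3.89 in Trim9 KO and 12.59 ± 1.63 in WT retinas (SD, n = 3 each), which gave a log2 fold change of -3.27 (standard error 1.70; limma, adjusted p = 0.999; two-sided exact permutation test, p = 0.2, where no p below 0.1 can be reached with 3 arrays in each group). This value rested on single arrays, at -1.45 when Trim9 KO replicate 1 was left out and -5.32 when Trim9 KO replicate 3 was. The next brightest probe set of Evl (1450106_a_at) read 2312, 699 and 720 in Trim9 KO retinas and 671, 2411 and 4227 in WT retinas, and here Trim9 KO replicate 1 was the brightest of the KO arrays. Its log2 fold change was -0.84 (standard error 1.06), and the other 2 probe sets of Evl, both dimmer than the median of all probe sets, were at -0.42 and 0.47.

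Vasp, the TRIM9 substrate of this family, was read by 1 probe set. It gave 568, 475 and 372 in Trim9 KO retinas and 132, 1147 and 827 in WT retinas. The KO arrays lay close together between a low WT replicate 1 and the other WT arrays. The log2 means were 8.91 ± 0.30 in Trim9 KO and 9.04 ± 1.6 in WT retinas (SD, n = 3 each), which gave a log2 fold change of -0.13 with a 95% interval of -2.43 to 2.18 (limma, adjusted p = 0.999). Its sign depended on single arrays: it was -1.04 without WT replicate 1, but 0.45 without WT replicate 2, 0.21 without WT replicate 3 and 0.027 when Trim9 KO replicate 3 was left out.

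Enah, which encodes the mammalian counterpart of fly Enabled, was read by 6 probe sets. The brightest (1424800_at) gave 6253, 24468 and 12940 in Trim9 KO retinas and 13104, 10062 and 19749 in WT retinas, so that the lowest and the highest array were both KO arrays. The log2 fold change was -0.13 (standard error 0.96, 95% interval -2.25 to 1.99), and it was 0.37 without Trim9 KO replicate 1. A neighbouring probe set (1424801_at) gave another picture, with 241, 1005 and 1247 in Trim9 KO retinas and 1477, 3379 and 2741 in WT retinas. Here each of the KO arrays was dimmer than each of the WT arrays, and the log2 fold change was -1.80 (standard error 1.01; limma, adjusted p = 0.999; exact permutation p = 0.1). Among the 26, it was the 1 probe set in which the genotypes did not overlap, where 3.06% of single-gene probe sets had all KO arrays below and 4.92% all KO arrays above. The other 4 probe sets of Enah ranged from -0.98 to 0.64.

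Of the SNARE genes, Snap25 was the 1 whose probe sets were both lower in the mean. Its protein is the SNARE that TRIM9 binds, and in the retina it is found at conventional and ribbon synapses alike. The brightest probe set read 34249, 19301 and 143740 in Trim9 KO retinas and 131412, 109069 and 108389 in WT retinas. The WT arrays agreed closely (16.82 ± 0.16 on the log2 scale), whereas the KO arrays were spread (15.48 ± 1.49; SD, n = 3 each), with replicates 1 and 2 below and replicate 3 above every WT array. The log2 fold change was -1.34 (standard error 1.03, 95% interval -3.60 to 0.91; limma, adjusted p = 0.999; exact permutation p = 0.4), and it was -0.72 when Trim9 KO replicate 2 was left out and -2.17 when Trim9 KO replicate 3 was.

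The second probe set of Snap25 (1447763_at) gave 38.8, 186 and 219 in Trim9 KO retinas and 207, 1495 and 2542 in WT retinas. The genotypes overlapped through WT replicate 1, which lay just below the highest KO array. Its log2 fold change of -2.79 (standard error 1.16) had an unadjusted p of 0.0348 in limma, the lowest of the 26 probe sets and the 1 among them under 0.05, with an adjusted p of 0.999 and an exact permutation p of 0.2. Beside these values, the summed intensity of the amacrine cell genes Gad1, Slc6a9, Tfap2a, Chat and Slc32a1 was 30826 to 107474 in Trim9 KO retinas and 47066 to 89880 in WT retinas. The mean of 4 of these 5 genes was lower in Trim9 KO retinas, and their part in the Snap25 values was not tested.

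Stx1a, the plasma membrane partner of Snap25 in amacrine and other conventional synapses, lay on the other side of 0. It read 17373, 16769 and 9231 in Trim9 KO retinas and 6787, 14344 and 1995 in WT retinas. WT replicate 2 was brighter than Trim9 KO replicate 3, and the remaining arrays kept apart by genotype. The log2 means were 13.77 ± 0.51 in Trim9 KO and 12.51 ± 1.43 in WT retinas (SD, n = 3 each). The log2 fold change was 1.26 (standard error 1.03, 95% interval -1.0 to 3.52, adjusted p = 0.999 by limma, exact permutation p = 0.2). It was 0.49 without WT replicate 3, the dimmest array here. That array was the one with no 3' excess of Gapdh, and its part in the value was not tested. The oligonucleotides of this Stx1a probe set can also bind other transcripts, as its suffix (1437390_x_at) records. The dimmer second probe set was at 0.58 (standard error 1.08).

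Vamp2, the vesicle SNARE, gave 1411, 4061 and 3459 in Trim9 KO retinas and 2066, 3955 and 26257 in WT retinas. WT replicate 3, the array with no 3' excess of Gapdh, stood well above the rest, and the other 5 arrays were mixed. The log2 fold change of -1.14 (standard error 1.14, 95% interval -3.64 to 1.36; limma, adjusted p = 0.999) was -0.08 without that array. Its second probe set had a mean below the median of all probe sets, with 2707, 46.3 and 104 in Trim9 KO retinas and 5.5, 37.2 and 851 in WT retinas, and had a log2 fold change of 1.45 (standard error 1.65).

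**Figure D2:**
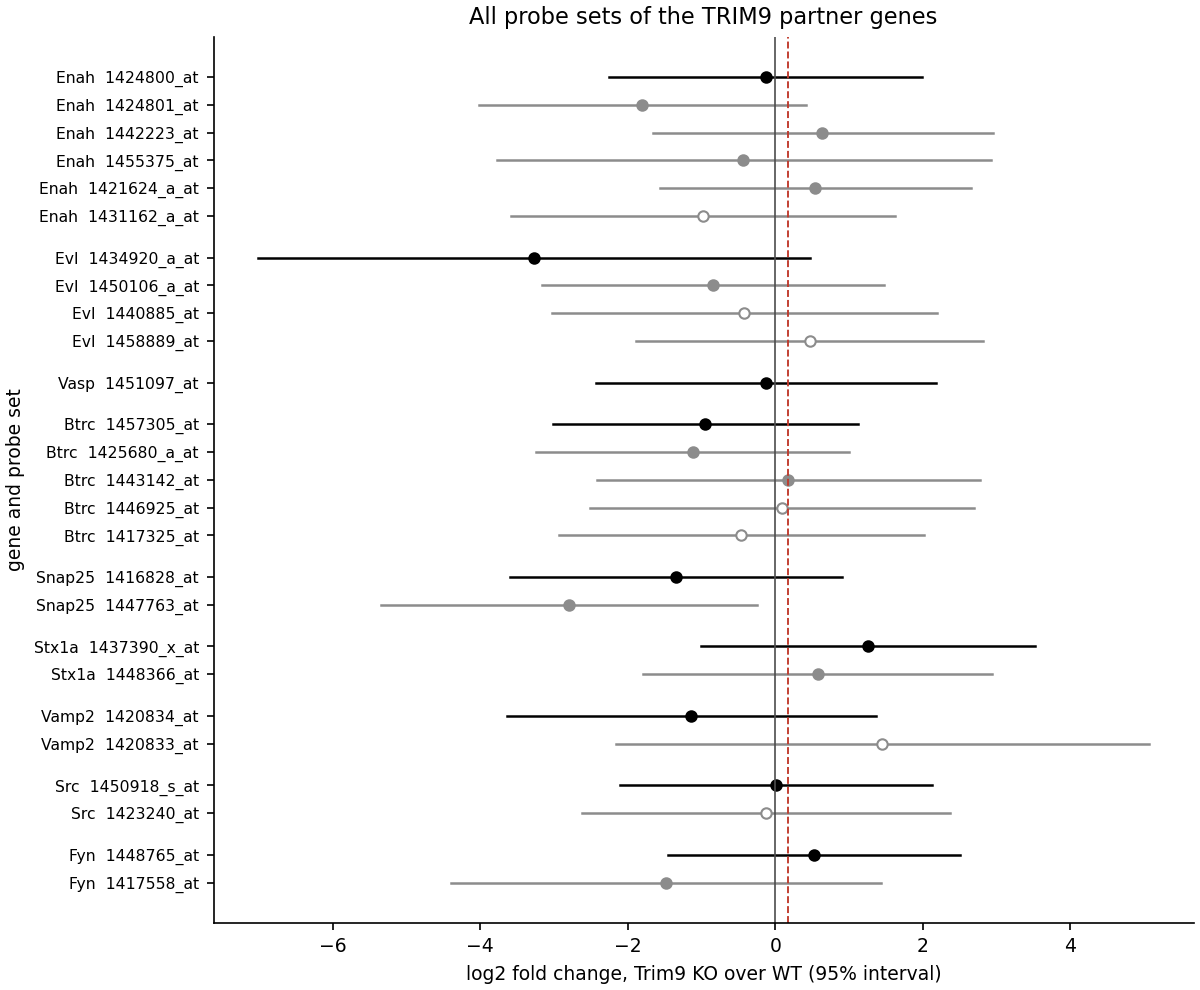
Log2 fold change, Trim9 KO over WT (x axis), with its 95% interval from limma, for each of the 26 probe sets of the TRIM9 partner genes (y axis); the brightest of each gene is black, the others are grey, open circles have a mean at or below the median of all probe sets, and the dashed line marks 0.18, the median over the whole array. The interval leaves out 0 for 1 probe set, of Snap25, and probe sets of Enah, Evl, Btrc, Vamp2, Src and Fyn lie on both sides of 0.

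Btrc read 1166, 2677 and 3065 in Trim9 KO retinas and 2902, 5762 and 4154 in WT retinas. Trim9 KO replicate 3 was brighter than WT replicate 1, and the other KO arrays lay below all WT arrays. The log2 means were 11.06 ± 0.75 in Trim9 KO and 12.01 ± 0.49 in WT retinas (SD, n = 3 each), which gave a log2 fold change of -0.95 (standard error 0.94, 95% interval -3.01 to 1.12; limma, adjusted p = 0.999; exact permutation p = 0.2). The second brightest of its 5 probe sets was at -1.12 (standard error 0.97), and the other 3 ranged from -0.46 to 0.18.

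The kinases Src and Fyn were the members with the smallest differences in either direction besides Enah and Vasp. Src gave 410, 1393 and 864 in Trim9 KO retinas and 468, 843 and 1236 in WT retinas, with the KO arrays spread around the WT arrays. Its log2 fold change was 0.01 (standard error 0.97, 95% interval -2.11 to 2.13), and its dim second probe set was at -0.12. Fyn gave 3367, 3423 and 2051 in Trim9 KO retinas and 1896, 2292 and 1817 in WT retinas. Trim9 KO replicates 1 and 2 were above all WT arrays, and Trim9 KO replicate 3 was below WT replicate 2. Fyn varied least of the 9 genes within genotypes (SD 0.32 on the log2 scale, against a median of 1.21 for all genes and 2.99 for Evl). Its log2 fold change was 0.52 (standard error 0.90, 95% interval -1.45 to 2.5; limma, adjusted p = 0.999), while the other probe set, which read 53.7 on Trim9 KO replicate 1 and 1264 to 2919 on the other 5 arrays, was at -1.48 (standard error 1.33).

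Over all 26 probe sets, 16 had a lower and 10 a higher mean in Trim9 KO retinas, where 46% of single-gene probe sets had a lower one. Snap25 and Stx1a had both of their probe sets on 1 side, in opposite directions, and Vasp had a single probe set. The probe sets of the other 6 genes disagreed in sign.

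Single arrays stood out in these genes within both genotypes. Trim9 KO replicate 1 was the lowest array for 5 of the 9 genes (Enah, Evl, Btrc, Vamp2 and Src) and lay at a median of -1.07 log2 units from the mean of the 6 arrays over the members, although it lay at 0.23 over all genes. WT replicate 3 lay at 0.59 over the members and -0.25 over all genes, with Vamp2 2.70 above and Stx1a 2.16 below the mean of the 6 arrays. The 3 SNARE genes did not vary together from array to array: the profiles of Stx1a and Vamp2, each centred on its own mean, differed by a root mean square of 2.28 log2 units over the 6 arrays, those of Snap25 and Stx1a by 1.92 and those of Snap25 and Vamp2 by 1.5. Enah and Src, of different families, were the closest members, at 0.37.

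**Figure D3:**
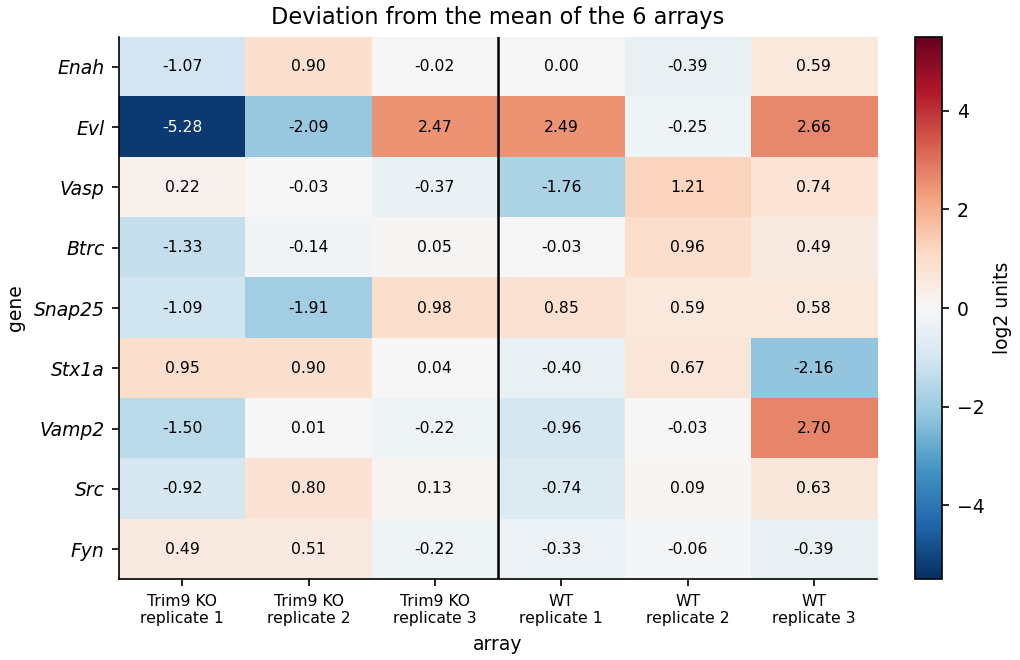
Deviation of each TRIM9 partner gene (rows) from its mean over the 6 arrays (columns, Trim9 KO left of the line and WT right of it), in log2 units as printed and coloured. Trim9 KO replicate 1 is the lowest array for 5 genes, and the lowest value is -5.28 for Evl.

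Among 12055 other genes whose mean exceeded the probe set median, the profile closest to each member was sought by the same measure, as a description of these 6 arrays. It was Nuf2 for Fyn (0.05 log2 units), Ap2a1 for Enah (0.09), Tm9sf4 for Vasp (0.11), Mydgf for Btrc (0.16), Vipas39 for Stx1a (0.18), Ndufa3 for Src (0.19), Cenpj for Snap25 (0.22) and Stk11 for Vamp2 (0.25). For Evl it was Pbdc1, at 0.94. The measure is not scaled to a gene's own spread. The root mean square deviation from a gene's own mean ran from 0.37 for Fyn to 2.94 for Evl. The order of these distances therefore does not rank how alike the profiles are in shape. With 6 arrays and so many genes a close profile is easily found.

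Related genes were examined as lists of known partners and regulators. Of 12 partners of Ena/VASP proteins, 9 had a higher and 3 a lower mean in Trim9 KO retinas (median log2 fold change 0.78, against 0.14 for all genes), and 0 passed limma's adjusted threshold. Fyb, an adaptor of blood and immune cells that binds the EVH1 domain, read 2245, 545 and 434 in Trim9 KO retinas and 64.6, 95.6 and 135 in WT retinas. All KO arrays lay above all WT arrays, as for 5.35% of all genes (log2 fold change 2.91, standard error 1.00, unadjusted p = 0.0141 and adjusted p = 0.999 by limma). The mean of Fyb was below the median of all probe sets, and with dim probe sets left out the median of the list was 0.58. The summed intensity of the microglia genes Aif1, Cx3cr1, C1qa and Csf1r was 20805 to 36553 in Trim9 KO retinas and 5156 to 23872 in WT retinas. Most of this sum came from Csf1r, at 20524 to 34094 in Trim9 KO and 3365 to 23545 in WT retinas. Of the 4 genes, Aif1 and Csf1r were higher and Cx3cr1 and C1qa lower in the mean. The means of Aif1, Cx3cr1 and C1qa were below the median of all probe sets, and the part of immune cells in the Fyb values was not tested. Pfn1, which encodes the profilin that delivers actin monomers to Ena/VASP proteins, read 80.4, 98 and 207 in Trim9 KO retinas and 244, 446 and 8484 in WT retinas, the last on the array with the divergent Gapdh signal. The genotypes did not overlap, with the KO arrays below, as for 2.89% of all genes (log2 fold change -2.90, standard error 1.30, unadjusted p = 0.0475 and adjusted p = 0.999 by limma). Baiap2, which encodes the membrane-bending protein IRSp53, and Lpp, of the zyxin family, were at 1.84 (standard error 1.17) and 1.38 (standard error 1.04), with genotypes that overlapped.

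Of 24 genes of actin filaments and filopodia, 13 had a higher and 11 a lower mean (median 0.05). In 0 of them were the genotypes apart, against 2.89% (KO below) and 5.35% (KO above) of all genes. The largest statistics were those of cortactin, Cttn (1.43, standard error 1.02), the filopodial motor Myo10 (-1.28, standard error 1.00), the bundling protein fascin, Fscn1 (1.28, standard error 1.06), and the filament-severing cofilin Cfl1 (1.35, standard error 1.13). The Cfl1 probe set has the same suffix as that of Stx1a, and can also bind other transcripts. The median of this list took the other sign when array medians were made equal (-0.27) and after quantile normalization (-0.05).

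Of 25 regulators of SNARE complexes and vesicle proteins, 16 had a lower and 9 a higher mean in Trim9 KO retinas (median -0.45). For 4 of the 25, Cplx4, Unc13b, Unc13c and Napg, the KO arrays were all dimmer than the WT arrays, as for 2.89% of all genes, and for 0 of the 25 did they lie above. Cplx4 encodes a complexin of photoreceptor and bipolar ribbon synapses, and it read 13497, 8182 and 16628 in Trim9 KO retinas and 23943, 41933 and 33712 in WT retinas (log2 fold change -1.40, standard error 0.92; limma, adjusted p = 0.999). The priming factor Unc13b read 4809, 5175 and 8243 in Trim9 KO retinas and 9661, 11808 and 13919 in WT retinas. Its relative Unc13c was at -1.02 and Napg, the gamma form of the adaptor that recruits the SNARE-disassembling ATPase, at -0.69; these 3 genes are named after their values were seen. When array medians were made equal, 0 of the 25 genes had all KO arrays below all WT ones, against 3.61% of all genes. Rod genes were also low in the mean, with 4 of 4 lower and a summed intensity of 344645 to 513556 in Trim9 KO retinas and 512086 to 847791 in WT retinas, and the part of photoreceptors in these values was not tested. Of the others with the largest statistics, the SNARE-binding tomosyn gene Stxbp5 was at -1.92 (standard error 1.15), Napa at -1.26 (standard error 0.97) and the calcium sensor Doc2a at 1.78 (standard error 1.06), with overlap.

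Of 11 other SNAREs of the plasma membrane and endosomes, 8 had a higher and 3 a lower mean (median 0.18). Snap23, the widely expressed relative of Snap25, read 161, 242 and 541 in Trim9 KO retinas and 597, 598 and 646 in WT retinas, with no overlap (log2 fold change -1.10, standard error 0.93; limma, adjusted p = 0.999). Vamp8 was at -0.91, Vamp1 at -0.79 and Snap47 at 1.2, each with overlap. The Snap47 probe set likewise has the suffix of that of Stx1a, and can also bind other transcripts.

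**Figure D4:**
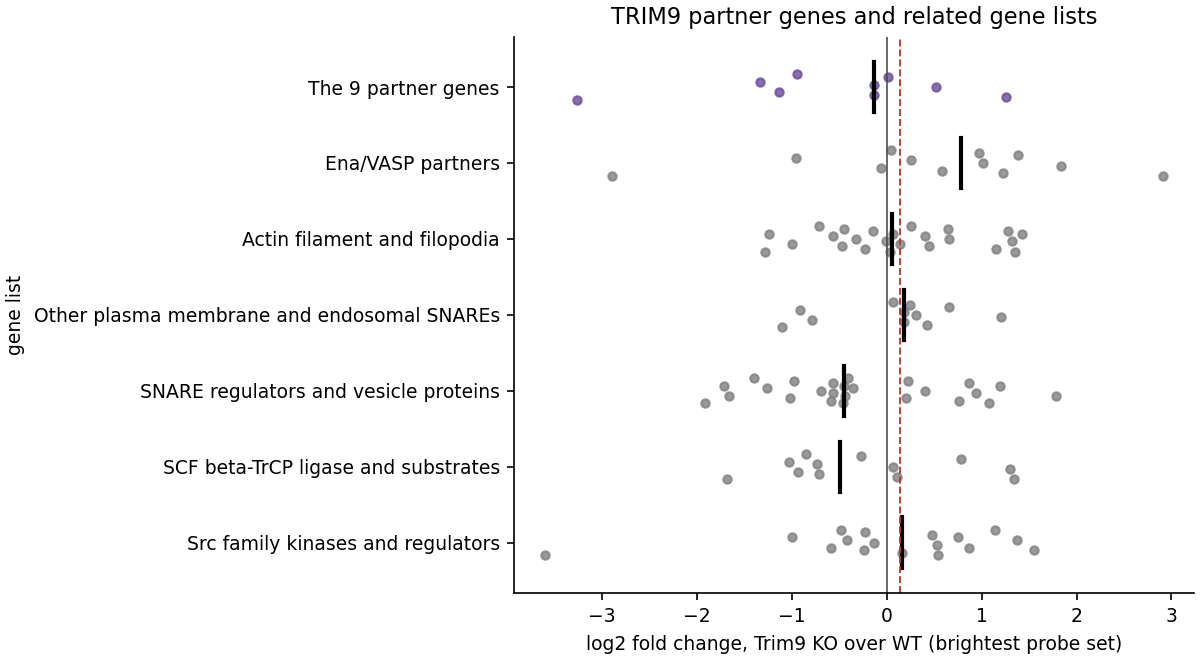
Log2 fold change, Trim9 KO over WT (x axis), of the 9 TRIM9 partner genes and of each measured gene of 6 related lists (y axis), with a point for each gene; the list's median is a black line, and 0.14, the median of all genes, is dashed. Genes of each list fall to either side of 0, and the medians run from -0.49 for the SCF beta-TrCP ligase and its substrates to 0.78 for partners of Ena/VASP proteins.

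Of 12 measured genes of the SCF beta-TrCP ligase, its substrates and their regulators, 7 had a lower and 5 a higher mean (median -0.49). Fbxw11, which encodes the second beta-TrCP protein, was at 1.30 (standard error 1.04), opposite in sign to Btrc, with intensities of 396580, 223548 and 128664 in Trim9 KO retinas and 164345, 146501 and 31943 in WT retinas. The Fbxw11 probe set has the same suffix as that of Stx1a, so its oligonucleotides can also bind other transcripts. The part of such transcripts in the Fbxw11 value, and so in the contrast with Btrc, was not tested. The ring subunit Rbx1, with a mean below the median of all probe sets, was at -1.68 (standard error 1.33), the ubiquitin-like modifier Nedd8 at -1.03 and the scaffold Axin1 of the beta-catenin destruction complex at 1.34. In 1 of the 12 genes, the cullin exchange factor Cand1, the KO arrays were all dimmer than the WT arrays, as for 2.89% of all genes. Its log2 fold change was -0.94 (standard error 0.93), and it was named after its values were seen.

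Of 17 Src family kinases and their regulators, 9 had a higher and 8 a lower mean (median 0.16). Ptpra encodes a receptor phosphatase that activates SRC and FYN by removing their inhibitory phosphate, and it read 127, 67.3 and 382 in Trim9 KO retinas and 413, 4291 and 4545 in WT retinas. The KO arrays were all dimmer than the WT arrays, as for 2.89% of all genes, narrowly so for Trim9 KO replicate 3 and WT replicate 1. The log2 fold change was -3.60 (standard error 1.18, unadjusted p = 0.0108 and adjusted p = 0.999 by limma). Blk, a kinase of B cells, read 946, 720 and 519 in Trim9 KO retinas and 287, 306 and 139 in WT retinas. All KO arrays lay above all WT arrays, as for 5.35% of all genes (log2 fold change 1.55, standard error 0.92, adjusted p = 0.999 by limma). The adhesion scaffolds Bcar1 and Pxn, which are substrates of SRC, were at 1.37 (standard error 1.02) and 1.14 (standard error 0.98), and in both WT replicate 1 lay among or above the KO arrays.

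**Figure D5:**
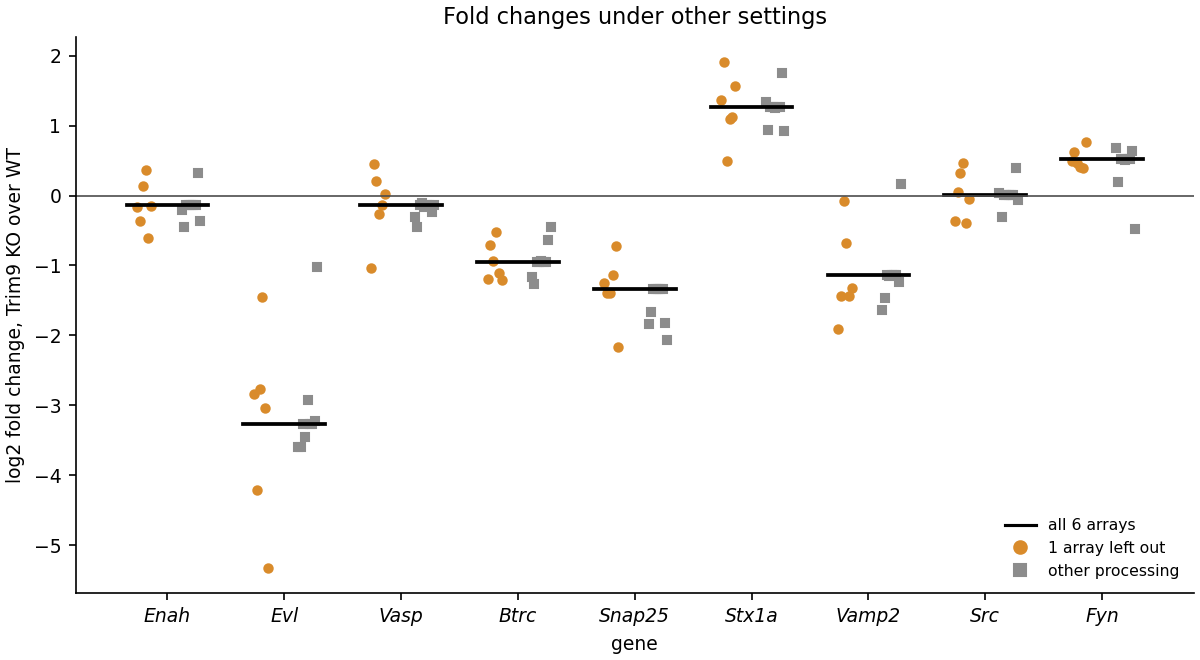
Trim9 KO over WT log2 fold change (y axis) of each TRIM9 partner gene (x axis) with all 6 arrays (line), with 1 array left out (circles) and under other processing (squares). Evl, Btrc and Snap25 stay below 0 and Stx1a above 0 in all 15 alternatives, and the other 5 genes change sign in at least 1.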

How the data were processed

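Adult retinas of 3 Trim9 KO mice and 3 WT littermates were profiled on 6 arrays, and all were used. The deposited values are linear intensities, which the authors had scaled: after 2% of probe sets were trimmed from each end, the mean was 1500 on every array. MAS5, with no version, is named in the submitters' processing notes, whereas RMA, which returns log2 values, is stated in the methods of the paper. The genome build is not given in the sources used here. Precision is limited by having 3 arrays a group.

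After 64 control probe sets had been dropped, log2(intensity + 16) of 45037 probe sets was fitted by lmFit and eBayes of limma 3.58.1, under R 4.3.3, with Benjamini-Hochberg adjustment over all of them and a threshold of 0.05. The script was tested on simulated data. Exact permutation tests (scipy 1.17.1) were two-sided. Genes were named from the platform annotation, updated by gene number to RefSeq symbols (GRCm38.p6), which matched for 99.4% of single-gene probe sets. No probe set named a member together with another gene.

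The members and lists were chosen with earlier results of these data known. The text names the 9 members and Trim9, up to 4 genes with the largest limma statistic in each of 6 lists, and the nearest profile to each member, apart from genes said to be chosen later. Lists of 15 cell types served as markers. Their summed intensities are descriptions in which the brightest probe set of a list weighs most. Some genes of the lists were not analysed here. The alternatives tried were equal array medians, quantile normalization, dropping dim probe sets, pseudocounts of 1 and 64, a replicate block, limma's trend with a robust prior, array weights, averaging all probe sets of a gene, and leaving out each array.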

Additional observations from a re-analysis of the deposited data

How the results depend on the processing

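Of 135 alternative fold changes of the 9 members, 13 changed the sign. An adjusted p was computed for 126 of them, and 0 reached limma's threshold of 0.05 (lowest adjusted p 0.619), while the 9 means over all probe sets of a gene were not tested. Evl (-5.32 to -1.02), Btrc (-1.27 to -0.45), Snap25 (-2.17 to -0.72) and Stx1a (0.49 to 1.91) kept their sign in all 15 alternatives. Src turned to -0.31 with equal array medians, Enah to 0.33 with array weights, and Vamp2 (0.16), Src (-0.058) and Fyn (-0.48) with the mean of all probe sets of a gene. When 1 array was left out, the log2 fold change ranged from -0.61 to 0.37 for Enah, from -1.04 to 0.45 for Vasp and from -0.39 to 0.47 for Src. The median over the members ranged from -1.04 (without WT replicate 1) to 0.13 (without WT replicate 3), and the members with a lower mean in Trim9 KO retinas from 4 to 7. With 1 array fewer, separation was more common. All KO arrays lay below for 4.51% (without WT replicate 2) to 10.8% (without WT replicate 1) of all genes, against 2.89% with 6 arrays. Members with all KO arrays below ranged from 0 to 3, the 3 without Trim9 KO replicate 3, where 8.21% of all genes did. Those with all KO arrays above ranged from 0 to 2, and after quantile normalization 1 member had all KO arrays above. The share of all genes with KO arrays above is not given for these settings. The causes were not tested.

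Of all probe sets, 0 passed the adjusted threshold in any setting that was tested, and the unadjusted p was under 0.05 for 1296, against 632 without dim probe sets, 3637 with array weights and 854 to 2556 without 1 array. Whether replicate numbers pair the samples is not stated. The deviations of same-numbered arrays from their group means correlated at -0.23, -0.08 and 0.03, and those of differently numbered arrays at -0.29 to 0.28. With so few arrays these values cannot show or exclude a pairing. With the replicate block, 864 probe sets had an unadjusted p under 0.05 by limma.

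When 1 array was left out, the list medians ranged from 0.39 (without WT replicate 2) to 1.17 (without WT replicate 1) for Ena/VASP partners, from -0.23 to 0.43 for actin and filopodia, from -0.063 to 0.52 for other SNAREs, from -0.68 to -0.084 (without WT replicate 3) for SNARE regulators, from -0.79 to -0.074 (without WT replicate 2) for the SCF list and from -0.091 to 0.21 for Src family kinases and regulators. Equal array medians turned the other SNAREs to -0.14 and the Src list to -0.16. Of the 25 SNARE regulators, 4 to 8 had all KO arrays below when 1 array was left out (8 without WT replicate 1, where 10.8% of all genes did), 4 after quantile normalization and 0 with equal array medians, in alternatives chosen after seeing the data.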

Other observations

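Glial and vascular genes, which belong to none of the comparisons above, differed in level between the arrays as well. Gfap, the intermediate filament gene of astrocytes and of reactive Muller glia, had all Trim9 KO arrays above all WT arrays (log2 fold change 2.62, standard error 1.04). That pattern was found for 5.35% of all genes. The other astrocyte gene, Aldh1l1, was at 0.27, with overlap. Among the markers of all 15 cell type lists, Mlana, Pou4f1, Pecam1 and Tfap2a also had all KO arrays above. Mbp had all KO arrays below, as for 2.89% of all genes. These genes were named after their values were seen. The summed intensity of Gfap and Aldh1l1 was 1242 to 3058 in Trim9 KO retinas and 272 to 962 in WT retinas. The 4 Muller glia genes were each lower in the mean (summed intensity 78564 to 164065 in Trim9 KO and 99567 to 358526 in WT retinas), and the 3 endothelial genes were each higher (1164 to 2880 in Trim9 KO and 794 to 1355 in WT retinas).

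Of the neuronal lists, 3 of 4 cone genes had a lower mean (summed intensity 44699 to 67309 in Trim9 KO and 64774 to 79670 in WT retinas), as did 3 of 3 horizontal cell genes (12685 to 34289 in Trim9 KO and 19284 to 39927 in WT retinas). Most of the horizontal cell sum came from Calb1, at 12361 to 33835 in Trim9 KO and 18361 to 39162 in WT retinas. The means of Lhx1 and Onecut1 were below the median of all probe sets. A higher mean was found for 3 of 4 bipolar cell genes (22525 to 28611 in Trim9 KO and 24958 to 31326 in WT retinas) and for 3 of 4 ganglion cell genes (58866 to 134945 in Trim9 KO and 34640 to 150375 in WT retinas). Of tissue outside the neural retina, erythroid genes summed to 658 to 1949 in Trim9 KO and 220 to 1321 in WT retinas, lens genes to 427 to 3288 in Trim9 KO and 163 to 1348 in WT retinas, muscle genes to 709 to 1585 in Trim9 KO and 562 to 1943 in WT retinas, and oligodendrocyte genes to 270 to 1058 in Trim9 KO and 719 to 2622 in WT retinas. By limma, 0 of these genes reached an adjusted p of 0.05, as 0 of all probe sets did (1296 of them had an unadjusted p under 0.05), and what part they have in the values of the TRIM9 partner genes was not tested.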
